A study of Mus musculus with 2 samples.

Results

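The IFIT genes are a family of interferon-induced genes, and 6 of them had a row in both count matrices of this study: Ifit1, Ifit2, Ifit3, Ifit3b, Ifit1bl1 and Ifit1bl2, of 32285 genes in all. They were chosen by their gene symbol, after it was known from these data that several of them had higher counts in the irradiated library, so the values that compare the libraries are given below as a description and without a test. MC38 cells, derived from a colon tumor of the mouse, had been grown as tumors in WT mice, and CD45+ cells, which are leukocytes, had been sorted from pooled tumors of each group. The Control library came from tumors that were not irradiated, and the IR library from tumors collected 4 days after irradiation with 20 Gy, given as 1 dose. With 1 library per group there was no replicate, so every interval in the text is an exact 95% interval that covers counting error only, and the library and the treatment cannot be told apart.

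IFIT proteins are built from repeated helical motifs and bind RNA directly. They are best known for recognising viral RNA whose 5′ end lacks the methylation that marks the cell's own messenger RNA, and for blocking its translation. Their genes are nearly silent in resting cells and are switched on by interferon through ISGF3, a transcription factor complex that binds interferon-stimulated response elements in their promoters, or by IRF3 directly after the sensing of viral or misplaced nucleic acid.

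The 6 genes lay side by side on mouse chromosome 19 (GRCm38, GENCODE vM21 annotation), in a stretch of 99.3 kb that ran from 34550694 to 34650009 and held no other protein-coding gene. Ifit2 (ENSMUSG00000045932, 34550694 to 34576419), Ifit3 (ENSMUSG00000074896, 34583531 to 34588731), Ifit3b (ENSMUSG00000062488, 34607970 to 34613401) and Ifit1 (ENSMUSG00000034459, 34640871 to 34650009) were on the plus strand. Ifit1bl1 (ENSMUSG00000079339, 34592891 to 34601956) and Ifit1bl2 (ENSMUSG00000067297, 34617049 to 34640743) were on the minus strand. Ifit1 and Ifit1bl2 pointed away from each other, with start sites 128 bases apart.

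Each gene's promoter was read as a window of 250 bases before its annotated start and 50 from the start on (RefSeq, GRCm38.p6). The windows were searched on both strands for the letters GAAANNGAA (TTCNNTTTC on the other strand), which form the core of an interferon-stimulated response element. The 4 windows printed here are those of the genes with most of the counts and a match, and of Ifit1bl1, whose share of the family ran from 0.229% in collagen-positive cells to 17.1% in dendritic cells of the IR library. The sequences read 5′ to 3′ on the strand of the gene, with matches in capitals.
Ifit1, chr19:34640639-34640938, plus strand: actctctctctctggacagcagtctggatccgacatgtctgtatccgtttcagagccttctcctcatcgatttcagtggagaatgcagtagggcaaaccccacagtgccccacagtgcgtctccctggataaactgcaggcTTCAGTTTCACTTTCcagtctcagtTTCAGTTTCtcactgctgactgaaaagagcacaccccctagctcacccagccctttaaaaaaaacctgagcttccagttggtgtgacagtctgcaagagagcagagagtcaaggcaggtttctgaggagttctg
Ifit3, chr19:34583279-34583578, plus strand: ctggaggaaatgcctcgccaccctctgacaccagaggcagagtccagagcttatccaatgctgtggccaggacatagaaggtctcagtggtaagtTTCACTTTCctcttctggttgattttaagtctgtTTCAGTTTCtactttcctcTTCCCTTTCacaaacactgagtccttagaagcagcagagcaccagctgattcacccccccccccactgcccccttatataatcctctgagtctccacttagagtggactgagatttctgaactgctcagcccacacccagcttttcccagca
Ifit3b, chr19:34607707-34608006, plus strand: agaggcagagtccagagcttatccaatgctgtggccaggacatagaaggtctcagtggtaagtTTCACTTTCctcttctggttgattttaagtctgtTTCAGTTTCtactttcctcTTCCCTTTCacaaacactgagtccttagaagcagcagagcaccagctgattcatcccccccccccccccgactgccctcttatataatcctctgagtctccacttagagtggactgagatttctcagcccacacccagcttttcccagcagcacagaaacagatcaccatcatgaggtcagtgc
Ifit1bl1, first window, chr19:34601919-34602218, minus strand: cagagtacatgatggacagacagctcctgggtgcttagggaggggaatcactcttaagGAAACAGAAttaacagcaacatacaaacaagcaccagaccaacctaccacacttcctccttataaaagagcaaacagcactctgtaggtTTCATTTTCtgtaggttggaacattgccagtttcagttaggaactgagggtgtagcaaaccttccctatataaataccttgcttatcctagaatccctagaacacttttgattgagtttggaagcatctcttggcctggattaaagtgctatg

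Ifit1, Ifit3 and Ifit3b each held 3 matches, all within 187 bases of the start. In Ifit1 the first 2 of them overlapped by 3 bases. The windows of Ifit3 and Ifit3b carried the same 3 matches with the same spacing. The first of 2 windows of Ifit1bl2 shared 245 of its 300 bases with the Ifit1 window, read from the other strand, and held the same 3 matches, while its second window held 0. Both windows of Ifit1bl1 had 2 matches, 1 on each strand. The 2 windows of Ifit2 held none of these letters, which says only that they are not in these windows. Among the 27025 genes with a window, 9.76% had at least 1 match, 0.736% at least 2 and 0.0777% (21 genes) at least 3, so that 4 of those 21 genes were IFIT genes. None of 7 neighbouring genes on either side (Acta2, Fas, Ch25h, Lipa, Slc16a12, Pank1 and Kif20b) had a match. A match is a description of letters and not of binding.

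The members could be told apart by 3′ reads in most places. Ifit3 and Ifit3b transcripts were 98% identical over 1697 aligned bases, and Ifit1bl1 and Ifit1bl2 transcripts 90.5% identical over 2165. In the last 500 bases of each transcript, every stretch of 90 bases was found in no other gene, except in Ifit3, where 93.4% of them were and the rest were shared with Ifit3b. The split of UMIs between Ifit3 and Ifit3b is therefore less certain than the other splits.

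Cells were barcodes with at least 1000 UMIs (unique molecular identifiers, each marking 1 captured RNA molecule), 200 genes and at most 25% mitochondrial UMIs, which left 4679 Control and 3410 IR cells. They were put into lineages by marker genes, and levels are the UMIs of a gene summed over the cells of a gate, per 1000000 UMIs of those cells (CPM). The gates held, in Control and IR, 796 and 1086 monocytes, 1976 and 452 macrophages, 180 and 206 dendritic cells (DCs), 95 and 262 neutrophils, 37 and 66 mast cells or basophils, 466 and 268 T cells and 300 and 395 NK cells. Although the sample records name a CD45+CD11b+Ly6Chi population, lymphocytes were present in both libraries, as the CD45+ sort in the protocol implies. A further gate of 95 and 104 cells was defined by collagen genes and Sparc, and only 6 and 9 of them had a UMI of Ptprc, which encodes CD45. Of its 3 further stromal markers Pdgfrb was found in 46 and 42 cells, Pdgfra in 17 and 22, and Lum in 3 and 0, so these cells are called collagen-positive here and not fibroblasts. Markers outside the gate supported the name of the neutrophil gate less in Control, where S100a8 and S100a9 together had 3947 CPM against 19824 CPM in IR. Median UMIs per cell in the 8 gates ran from 2548 to 18733 in Control and from 3175 to 32009 in IR, and 7 barcodes passed the minimum in both libraries.

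Summed over the 6 genes, IFIT UMIs were higher in IR than in Control in all 8 gates, and the size ran from 2.22-fold in NK cells to 25.3-fold in neutrophils. The largest ratio was not in neutrophils under every setting: with cells weighing the same their log2 ratio was 3.48, below collagen-positive cells at 4.06 and T cells at 3.78, and without the deepest 6% of barcodes it was 4.3 against 5.48 in collagen-positive cells. Without the cell with the most family UMIs in each library it was 5.28, a 39.0-fold difference. In IR monocytes the family had 530 CPM (516 to 544) against 59.2 CPM (53.0 to 65.9) in Control, 8.96-fold higher. Neutrophil markers were also counted in that gate, where 4 of them (S100a8, S100a9, G0s2 and Trem1) summed to 1057 CPM in IR and 170 CPM in Control. Ly6c2, a marker used for the monocyte gate, had 1858 CPM in IR and 894 CPM in Control monocytes, with UMIs in 92.7% and 63.3% of cells. Macrophages had 386 CPM (370 to 402) against 45.5 CPM (42.5 to 48.5), 8.48-fold higher. The same neutrophil markers summed there to 580 CPM in IR and 111 CPM in Control, Ly6c2, a monocyte marker, had 427 and 81.4 CPM, and 4 macrophage markers outside the gate 2066 and 3917 CPM. The part of these differences in the family's values was not tested. DCs, the antigen-presenting cells that prime T cells, had 243 CPM (223 to 264) against 27.6 CPM (19.9 to 37.3), 8.80-fold higher. These 3 myeloid gates differed in level, while the intervals of their log2 ratios (3.16, 3.08 and 3.14) overlapped in the main setting. With cells weighing the same the log2 ratios were 3.20 in monocytes, 2.81 in macrophages and 3.03 in DCs. In IR DCs 5 cells held 337 of the 532 family UMIs.

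Neutrophils had the highest family level in IR, 725 CPM (683 to 768), and a low one in Control, 28.6 CPM (18.3 to 42.6) from 24 UMIs. The Control and IR neutrophil gates did not hold like cells, as the S100a8 and S100a9 values show, and their median depths were 8056 and 3175 UMIs. With the gate narrowed to Retnlg, Cxcr2 and Csf3r, a choice made after seeing this, both libraries had high S100a8 and S100a9 (66389 and 50507 CPM), and the family had 64.3 CPM (13.3 to 188) from 3 UMIs in 22 Control cells and 1327 CPM (1227 to 1432) in 114 IR cells. The intervals of the libraries stayed apart under both gates.

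Collagen-positive cells had 622 CPM (596 to 649) in IR and 66.8 CPM (55.9 to 79.2) in Control, 9.31-fold higher. The Control value rested on 1 cell with 88 of the 132 UMIs, and without the cell with the most family UMIs in each library the levels were 496 and 22.9 CPM, 21.7-fold apart. Without the cells that had a UMI of Ptprc the levels were 656 CPM (628 to 685) and 73.0 CPM (61.0 to 86.5).

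T cells had 204 CPM (187 to 222) in IR and 14.1 CPM (10.3 to 18.9) in Control, 14.4-fold higher. Markers of other cells were also counted in this gate: 4 neutrophil markers summed to 459 CPM in IR and 31.7 CPM in Control, and 4 macrophage markers to 139 and 345 CPM, with none of either list at 0 in both libraries. The part of the neutrophil RNA in the result was not tested. In T cells without a UMI of C1qa, C1qb, C1qc or Lyz2 (136 in Control, 139 in IR), the family had 147 CPM (123 to 174) in IR and 9.91 CPM (3.98 to 20.4) in Control, so the ratio was as large without those cells.

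NK cells stood apart as the lowest of the gates in IR. Their family level was 42.1 CPM (36.1 to 48.8) in IR and 18.9 CPM (13.8 to 25.4) in Control, 2.22-fold higher. In Control 15 of the 44 UMIs came from 1 cell. Without the cell with the most family UMIs in each library the levels were 38.8 and 12.5 CPM, 3.09-fold apart. The NK log2 ratio of 1.15 moved to 2.20 with mixed barcodes kept and to 1.94 with monocyte markers without Ly6c2. With free RNA subtracted at 10% it was 0.44. In NK cells without C1q or Lyz2 UMIs the family had 14.6 CPM (9.89 to 20.7) in 229 IR cells and 8.79 CPM (2.86 to 20.5) in 87 Control cells, and these intervals overlapped. Mast cells or basophils had 44 UMIs in IR, 171 CPM (124 to 229), of which 27 came from 1 cell, and 2 UMIs in Control, 16.6 CPM (2.01 to 60.0). The 4 neutrophil markers stood in that gate at 368 CPM in IR and 8.30 CPM in Control, and their part was not tested.

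In IR the order of the gates was neutrophils, collagen-positive cells, monocytes, macrophages, DCs, T cells, mast cells or basophils and NK cells. Of neighbours in this order, the intervals overlapped only between T cells and mast cells or basophils. Parts of the order rested on single cells: without the cell with the most family UMIs, collagen-positive cells (496 CPM, 473 to 520) stood below monocytes (520 CPM, 507 to 534), and DCs (199 CPM, 180 to 218) overlapped T cells (181 CPM, 165 to 198). In Control the order was different, with collagen-positive cells and monocytes first and macrophages next, and 6 of the 7 neighbouring pairs overlapped, the exception being monocytes and macrophages. Because a few cells can hold many of the UMIs, as in the collagen-positive and mast cell gates, these intervals are too narrow for differences between cells.

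**Figure D1:**
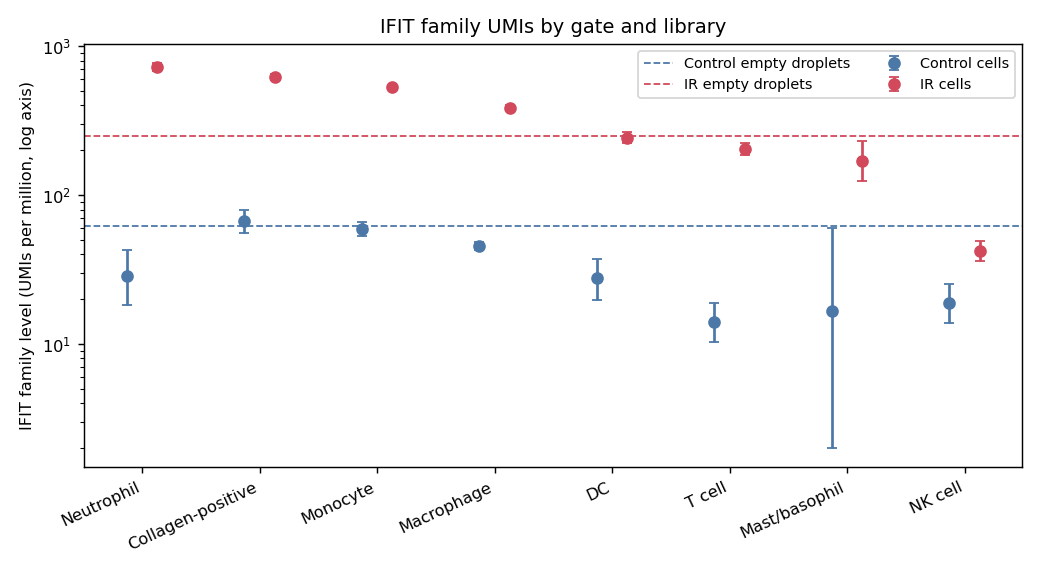
IFIT family level (CPM, log axis) in 8 gates of the Control (blue) and IR (red) library, with exact Poisson 95% intervals as bars and the level in empty droplets as dashed lines. The IR points run from 725 CPM in neutrophils to 42.1 CPM in NK cells, all IR points lie above the Control point of the same gate, and only in 4 gates do they lie above the IR empty-droplet level of 248 CPM.

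Free RNA in the droplets carried the family too. In IR, empty droplets stood at 248 CPM (220 to 279), and in Control at 62.0 CPM (50.6 to 75.3). Neutrophils, collagen-positive cells, monocytes and macrophages of the IR library stood 2.92, 2.51, 2.14 and 1.55 times over their empty droplets, DCs and T cells at 0.979 and 0.822 times, and NK cells at 0.170 times. If 10% of a cell's UMIs were free RNA, an assumed share, it would supply 24.8 CPM in IR, which is 3.42% of the neutrophil level, 4.68% of the monocyte level, 12.2% of the T cell level and 59.0% of the NK cell level. At an assumed 5% the part in NK cells would be 29.5%. The true share of free RNA was not measured.

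In the comparison across genes, a gene was called when the log2 ratio of CPM plus 10, IR over Control, was at least 1, among genes with at least 20 UMIs over both libraries. In monocytes 0.714% of 10917 genes were called, and the 5 members with enough UMIs (all but Ifit1bl2) were among them. In macrophages the share was 0.947% and in DCs 0.928%, again with the same 5 members called. In neutrophils, whose gates differed as described, 5.72% of genes were called, and all 6 members were past the threshold. In T cells 0.85% of genes and 5 members were called. In collagen-positive cells 0.727% of genes were called, and so were Ifit1, Ifit2, Ifit3 and Ifit3b, the 4 members with 20 UMIs. In mast cells or basophils 9.35% of only 2021 genes were called, and Ifit1 was the 1 member with 20 UMIs and was called. In NK cells 0.305% of genes were called, and none of the 3 members with 20 UMIs was. The median log2 ratio over all counted genes lay between -0.13 and 0.13 in the 8 gates. The median over the counted members was 2.22 in monocytes, 1.88 in macrophages, 3.03 in neutrophils and 0.60 in NK cells. In neutrophils Ifit1bl1 and Ifit1bl2 had 0 Control UMIs and reached 20 UMIs through IR alone, at 32 and 25. So did Ifit1 in mast cells or basophils, with 0 UMIs in Control and 21 in IR. Since the members were chosen with these ratios known, nothing is read from these counts or medians.

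Ifit1, which binds RNA with an unmethylated cap, was the most counted member in 7 of the 8 IR gates, the exception being collagen-positive cells. In macrophages this lead rested on 1 cell with 75 Ifit1 UMIs, and without it Ifit3 had 710 and Ifit1 695 UMIs. It had 174 CPM in IR monocytes against 23.3 CPM in Control, 135 against 18.2 CPM in macrophages and 298 against 10.7 CPM in neutrophils. In T cells it had 86.6 CPM from 230 UMIs in IR and 4.71 CPM from 15 UMIs in Control. NK cells had 14.9 CPM in IR and 6.45 CPM in Control, with a log2 ratio of 1.21 (0.38 to 2.13). The neutrophil level was above that of every other gate, with collagen-positive cells next at 191 CPM.

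Ifit2, an RNA-binding member also linked to cell death, was most abundant in monocytes. It had 110 CPM in IR and 15.8 CPM in Control monocytes, and 85.9 against 2.39 CPM in neutrophils, where Control had 2 UMIs. Macrophages had 66.0 against 13.5 CPM and collagen-positive cells 33.6 against 7.59 CPM. Ifit2 did not differ beyond counting error in NK cells, where it had 10.6 CPM in IR and 7.74 CPM in Control and a log2 ratio of 0.45 (-0.37 to 1.33). Ifit2 was also the member without a promoter match.

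Ifit3 was the leading member in collagen-positive cells. It had 327 CPM there in IR and 19.2 CPM in Control. In monocytes it had 161 against 14.2 CPM, in macrophages 128 against 9.15 CPM and in neutrophils 207 against 13.1 CPM. Its log2 ratio in macrophages, 3.81 (3.57 to 4.05), was larger than that of Ifit2, 2.29 (2.06 to 2.52), and that of Ifit1, 2.89 (2.71 to 3.07), with no overlap of the intervals.

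Ifit3b, the near copy of Ifit3, was far lower and highest in neutrophils, at 97.3 CPM in IR and 2.39 CPM in Control. Collagen-positive cells had 68.4 against 2.53 CPM and monocytes 30.1 against 1.60 CPM. Its UMIs relative to those of Ifit3 were 0.186 (0.165 to 0.210) in IR monocytes, 0.151 (0.123 to 0.185) in macrophages, 0.209 (0.181 to 0.241) in collagen-positive cells and 0.470 (0.385 to 0.570) in neutrophils. The neutrophil ratio was above those of the other 3 gates, for the pair of genes whose UMIs are the least certain to be split rightly.

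Ifit1bl1 was found mainly in myeloid cells. It had 53.4 CPM in IR monocytes, 41.5 CPM in DCs and 37.0 CPM in macrophages, against 4.26, 3.28 and 2.80 CPM in Control. In neutrophils it had 20.2 CPM from 32 UMIs in IR and 0 UMIs in Control, at least 5.65-fold higher when 3 UMIs are allowed for the 0. In collagen-positive cells only 5 of 2182 family UMIs in IR were Ifit1bl1 (1.43 CPM), and T cells had 13.9 CPM. The collagen-positive gate, with 191 CPM of Ifit1 and 327 CPM of Ifit3, was therefore almost without Ifit1bl1.

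Ifit1bl2 was scarce, with 25 of its UMIs in IR neutrophils and 11 in IR monocytes, and 0 UMIs in every Control gate. The neutrophil level was 15.8 CPM, at least 4.41-fold above Control when 3 UMIs are allowed for the 0, and came from 18 of 262 cells. In monocytes it was 1.0 CPM from 8 of 1086 cells. Ifit1bl2 was thus counted at 15.8 CPM in the neutrophil gate in which Ifit1, its divergent neighbour with a shared promoter window, had 298 CPM. Whether the same cells held both was not examined. In NK cells and mast cells or basophils Ifit1bl2 had 0 UMIs in both libraries.

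**Figure D2:**
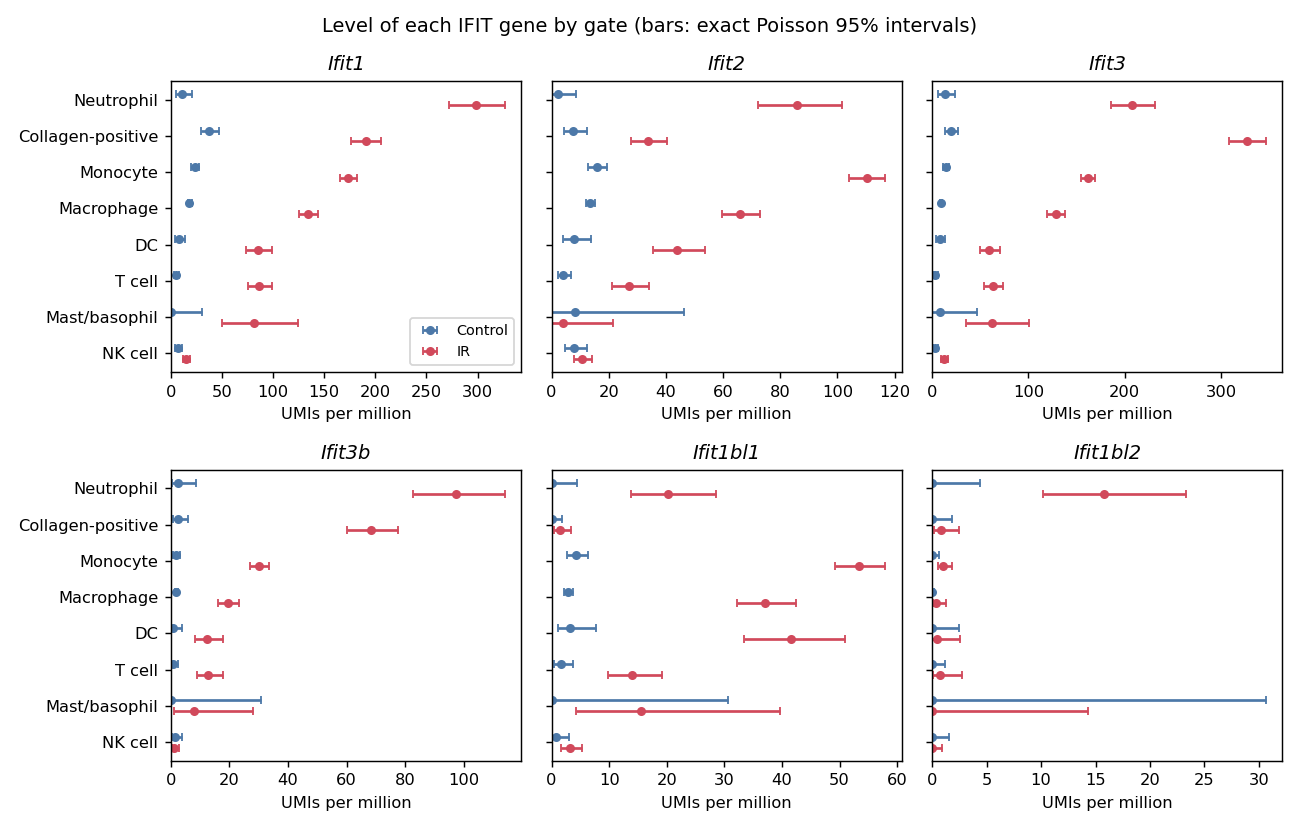
Level of each of the 6 IFIT genes (CPM, linear axis, scaled for each gene) in 8 gates of the Control (blue) and IR (red) library, with exact Poisson 95% intervals as bars. Ifit1, Ifit3b and Ifit1bl2 are highest in IR neutrophils, Ifit2 and Ifit1bl1 in IR monocytes (110 and 53.4 CPM) and Ifit3 in IR collagen-positive cells (327 CPM).

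The make-up of the family therefore differed between gates of the same IR library. In monocytes Ifit1 gave 32.8% of family UMIs, Ifit3 30.5%, Ifit2 20.8%, Ifit1bl1 10.1% and Ifit3b 5.68%. Macrophages were close to this, with 34.9%, 33.3%, 17.1%, 9.61% and 5.03%. In collagen-positive cells Ifit3 gave 52.6% (50.4 to 54.7), Ifit2 5.41% (4.50 to 6.44) and Ifit1bl1 0.229% (0.0744 to 0.534). The Ifit3 share was 52.9% without the cell that held 465 of the 2182 UMIs.

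In neutrophils Ifit1 gave 41.2% (38.3 to 44.1), Ifit3b 13.4% (11.5 to 15.5), Ifit1bl1 2.79% (1.92 to 3.92) and Ifit1bl2 2.18% (1.42 to 3.20). DCs had the largest Ifit1bl1 share, 17.1% (14 to 20.6), although only 14 of 206 DCs held its UMIs and 1 of them held 34 of the 91. Without the cell with the most family UMIs the share was 16.4% (13.1 to 20.3), but the cell with 34 was another one and stayed in. T cells had 42.4% Ifit1, 13.3% Ifit2 and 6.83% Ifit1bl1 (4.85 to 9.29). In empty droplets Ifit1 gave 29.9%, Ifit3 36.5%, Ifit3b 10.2% and Ifit1bl1 5.84% (3.37 to 9.31). The collagen-positive share of Ifit1bl1 was below that of the empty droplets, and the DC share above it, with no overlap of intervals. For DCs this rested on the few cells described above, for which the interval is too narrow.

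Between the libraries the make-up of a gate also moved. In macrophages Ifit2 gave 29.8% (26.8 to 32.9) of family UMIs in Control and 17.1% (15.6 to 18.8) in IR, and Ifit3 gave 20.1% (17.6 to 22.9) and 33.3% (31.3 to 35.3). Monocytes moved the same way, with Ifit2 at 26.7% (22 to 31.8) and 20.8% (19.8 to 21.9) and Ifit3 at 24.0% (19.5 to 29.0) and 30.5% (29.3 to 31.7). Empty droplets moved the same way, from 29.4% (20.8 to 39.3) Ifit2 in Control to 17.5% (13.2 to 22.5) in IR, and from 21.6% (14 to 30.8) Ifit3 to 36.5% (30.8 to 42.5). The part of free RNA in the shift within cells was not tested.

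**Figure D3:**
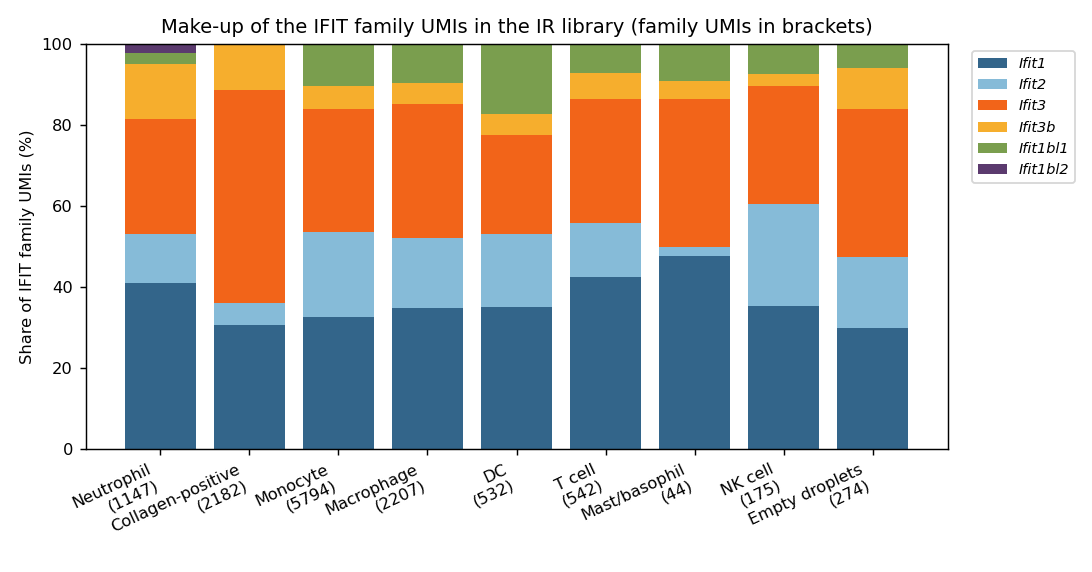
Share of each IFIT gene (% of the IFIT family UMIs) in 8 gates and in empty droplets of the IR library, with the number of family UMIs in brackets. Ifit3 fills 52.6% of the collagen-positive bar, which has almost no Ifit1bl1, while Ifit1bl1 reaches 17.1% in DCs and Ifit1bl2 is visible in neutrophils only.

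The family was unevenly spread over the cells of a gate. Cells were thinned at random to 1000 UMIs each, so that depth would not set the share with a UMI, and no cell was left out by this. At that depth 23.7% (21.2 to 26.3) of 1086 IR monocytes had an IFIT UMI against 4.52% (3.19 to 6.21) of 796 in Control, and without thinning 50.6% against 12.1%. In macrophages it was 16.6% (13.3 to 20.3) against 4.20% (3.36 to 5.18). In neutrophils it was 36.3% (30.4 to 42.4) against 5.26% (1.73 to 11.9), and in collagen-positive cells 27.9% (19.5 to 37.5) against 3.16% (0.656 to 8.95).

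Of T cells 14.2% (10.2 to 18.9) had an IFIT UMI in IR and 1.5% (0.606 to 3.07) in Control, without thinning 35.4% and 7.08%. DCs had 11.7% (7.61 to 16.8) and 1.67% (0.345 to 4.79). NK cells had 3.54% (1.95 to 5.88) and 2.0% (0.737 to 4.3), which overlapped, and without thinning 15.9% and 6.33%. Mast cells or basophils had 4.55% (0.947 to 12.7) in IR and 0 of 37 cells in Control, which allows up to 9.49%. No gate is known to lack these genes, so none gives a background share. Markers of other cells also differed between gates, with the 4 neutrophil markers at 459 CPM in T cells and 33.9 CPM in NK cells of the IR library, so the NK share does not bound the background of another gate.

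At 2000 UMIs per cell the spread within a gate could be described. Cells with fewer UMIs were left out, among them 25 of 95 Control and 50 of 262 IR neutrophils. The Control neutrophil with the most family UMIs, 9 of its 1896 UMIs, was among those left out. In IR monocytes 68.2% of 1042 cells had no IFIT UMI while 7.68% had 5 or more, with a most of 32 in 1 cell, and the variance of the number of UMIs was 7.02 times its mean. The tenth of monocytes with the most IFIT UMIs held 69.7% of them. In IR neutrophils 53.8% of 212 cells had none and 17.0% had 5 or more, with a variance of 10.2 times the mean. In IR T cells 80.4% had none and 1.22% had 5 or more, and in IR NK cells 95.3% had none and the most in 1 of the 383 cells was 4. A variance equal to the mean would be given by counting alone. Control T cells, at 1.11, and Control DCs, at 0.959, were near it. Their means were only 0.033 and 0.047 UMIs, with at most 2 and 1 in a cell, so the ratio cannot show their spread. Before thinning, 1 Control DC held 14 of the 42 family UMIs of its gate. Control monocytes and macrophages stood at 3.21 and 3.30.

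**Figure D4:**
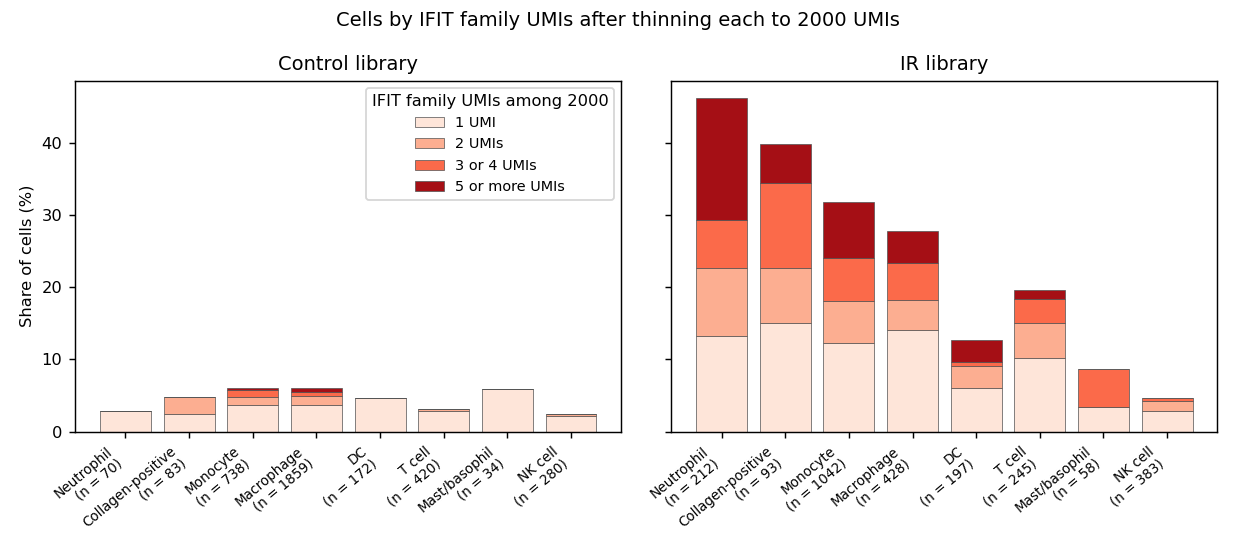
Share of cells (%) by the number of IFIT family UMIs among 2000 UMIs per cell in 8 gates of the Control (left) and IR (right) library; cells with none fill the rest to the whole. Cells with 5 or more UMIs make up 17.0% of IR neutrophils and 7.68% of IR monocytes. Among the Control cells kept, they occur only in monocytes (0.407%) and macrophages (0.484%). Cells with under 2000 UMIs are left out, among them 25 of 95 Control and 50 of 262 IR neutrophils.

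Ifit3, Ifit2 and Ifit1bl1 were each found more often in IR monocytes that also had Ifit1. Of 193 IR monocytes with an Ifit1 UMI at 2000 UMIs per cell, 57.0% (49.7 to 64.1) also had Ifit3, against 9.31% (7.44 to 11.5) of the 849 without Ifit1. For Ifit2 the shares were 43.0% (35.9 to 50.3) and 7.89% (6.17 to 9.91), and for Ifit1bl1 28.0% (21.8 to 34.9) and 3.30% (2.20 to 4.73). In IR neutrophils 59.7% (46.4 to 71.9) of cells with Ifit1 had Ifit3 and 14.7% (9.43 to 21.4) of those without, but 0 of 62 cells with Ifit1 had Ifit1bl1, which allows a share of up to 5.78%, against 4 of 150 cells without Ifit1. In IR T cells 40% (22.7 to 59.4) of 30 cells with Ifit1 had Ifit3, against 5.12% (2.58 to 8.97).

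Within T cells and DCs, finer gates gave the following levels. Each took cells with a UMI of its own markers and none of the other finer markers of that lineage. The Foxp3 gate left out only cells with Cd8a or Cd8b1 UMIs. CD8 T cells had 142 CPM (123 to 162) of the family in IR and 15.9 CPM (10.5 to 22.9) in Control (127 IR and 224 Control cells). CD4 T cells without Foxp3 UMIs had 253 CPM (197 to 320) against 16.3 CPM (4.44 to 41.7), from 69 and 4 UMIs (31 and 47 cells). Cells with Foxp3, which marks regulatory T cells, had 466 CPM (368 to 582) against 24.7 CPM (9.91 to 50.8). These came from 77 and 7 UMIs (19 and 48 cells). DCs with Ccr7, Fscn1 or Cacnb3 UMIs, genes of mature DCs, had 246 against 28.7 CPM. In those mature DCs Ifit1bl1 had 52.1 against 3.07 CPM. DCs with Cd209a and none of the other DC markers named here had 141 against 67.1 CPM, whose intervals overlapped. DCs with Xcr1 or Clec9a and none of the others had 2 UMIs in 6 IR cells and 0 in 13 Control cells.

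Most genes upstream of the family were not called, and the interferon genes were scarcely counted. Of 8 type I interferon genes only Ifnb1 and Ifna2 had any UMI in a cell, and of 41 UMIs of Ifnb1 in IR monocytes 35 came from 1 cell, with 7 cells of 1086 holding any. Control monocytes had 4 Ifnb1 UMIs, all in 1 cell. All 3 UMIs of Ifna2 lay in 1 IR monocyte. Ifng, the type II interferon, was lower in IR T cells at 165 CPM against 300 CPM, and in IR NK cells it was at 105 against 119 CPM.

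None of the 4 interferon receptor genes (Ifnar1, Ifnar2, Ifngr1, Ifngr2) was called in 7 of the 8 gates, and 1 was in mast cells or basophils. Stat2, which encodes a signal transducer of the type I interferon receptor, was called in macrophages, neutrophils and collagen-positive cells and not in monocytes, DCs, T cells or NK cells. It had 80.7 against 38.2 CPM in monocytes and 68.6 against 25.2 CPM in macrophages. Irf7, an interferon-induced factor that amplifies type I interferon, had 565 against 133 CPM in monocytes, 433 against 54.0 CPM in macrophages and 406 against 32.2 CPM in neutrophils. In NK cells, where no IFIT gene was called, Irf7 was called, with 113 against 28.8 CPM. The call adds 10 CPM to both levels, which shrinks the ratio most for genes of low level. Without the added 10 CPM, the log2 ratio of Irf7 in NK cells was 1.97 (1.59 to 2.36). That of Ifit3 was 2.25 (1.03 to 3.76), at 12.3 against 2.58 CPM from 51 and 6 UMIs.

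Other effectors were called in every gate. Of 11 listed effector genes 7 were called in monocytes, 10 in macrophages, 9 in DCs, 10 in neutrophils, 9 in T cells, 10 in collagen-positive cells and 5 in NK cells. In mast cells or basophils only 6 of the 11 had 20 UMIs, and 3 of them were called. Isg15, a ubiquitin-like modifier, had 971 against 150 CPM in monocytes, 359 against 46.5 CPM in T cells and 140 against 48.6 CPM in NK cells. Rsad2, the antiviral enzyme viperin, had 357 against 53.3 CPM in monocytes and 604 against 29.8 CPM in neutrophils, but in NK cells 37.3 against 24.1 CPM, which was not called. Usp18, an inhibitor of the type I interferon receptor, had 89.3 against 19.4 CPM in monocytes and 40.9 against 12.0 CPM in NK cells. Of the 3 RNA sensors, 2 were called in monocytes (Ddx58 and Dhx58), 3 in neutrophils and 0 in NK cells.

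None of Cmtr1, Cmtr2 and Rnmt, which methylate the cap that keeps IFIT1 from binding the cell's own RNA, was called in any of the 8 gates. All 3 had 20 UMIs in monocytes, macrophages and collagen-positive cells. Only 2 had them in DCs, neutrophils, T cells and NK cells, and 0 in mast cells or basophils. Cmtr1 had 57.6 against 44.4 CPM in monocytes. In all, 11 of 34 listed pathway genes with 20 UMIs were called in monocytes, 15 of 33 in macrophages and 12 of 31 in DCs. The counts were 17 of 31 in neutrophils, 12 of 32 in T cells and 14 of 32 in collagen-positive cells. They were 7 of 32 in NK cells and 7 of 13 in mast cells or basophils, and 0 were called lower in IR. The share of all genes called in each gate is given above. The list medians of the log2 ratio were 0.65 in monocytes, 0.95 in macrophages and 0.39 in NK cells. Over all counted genes the medians were -0.03, -0.03 and -0.04. The list, effectors included, was chosen with earlier results of these data known, so nothing is read from these counts or medians.

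Outside the neutrophil gate none of the 7 neighbouring genes was called. Those with 20 UMIs, which could be called, were 6 in monocytes, 6 in macrophages and 5 in collagen-positive cells. In NK cells they were 4, in T cells 3, in DCs 2 and in mast cells or basophils 0. Lipa, a lysosomal lipase gene that starts 23.2 kb before Ifit2, had 35.2 against 36.6 CPM in monocytes and 49.8 against 55.8 CPM in macrophages. Ch25h, which encodes cholesterol 25-hydroxylase, lay on its far side. It was lower in IR monocytes, at 11.2 against 21.5 CPM, and in IR macrophages, at 30.0 against 55.4 CPM. In T cells and NK cells its level was lower in IR too, and in DCs and neutrophils higher, each from at most 14 UMIs in a library. Slc16a12, the nearest gene on the other side, had 0 UMIs in monocytes of both libraries. In neutrophils Acta2 (51.8 against 7.16 CPM) and Fas (64.4 against 11.9 CPM) were called, in the gate in which 5.72% of all genes were.

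**Figure D5:**
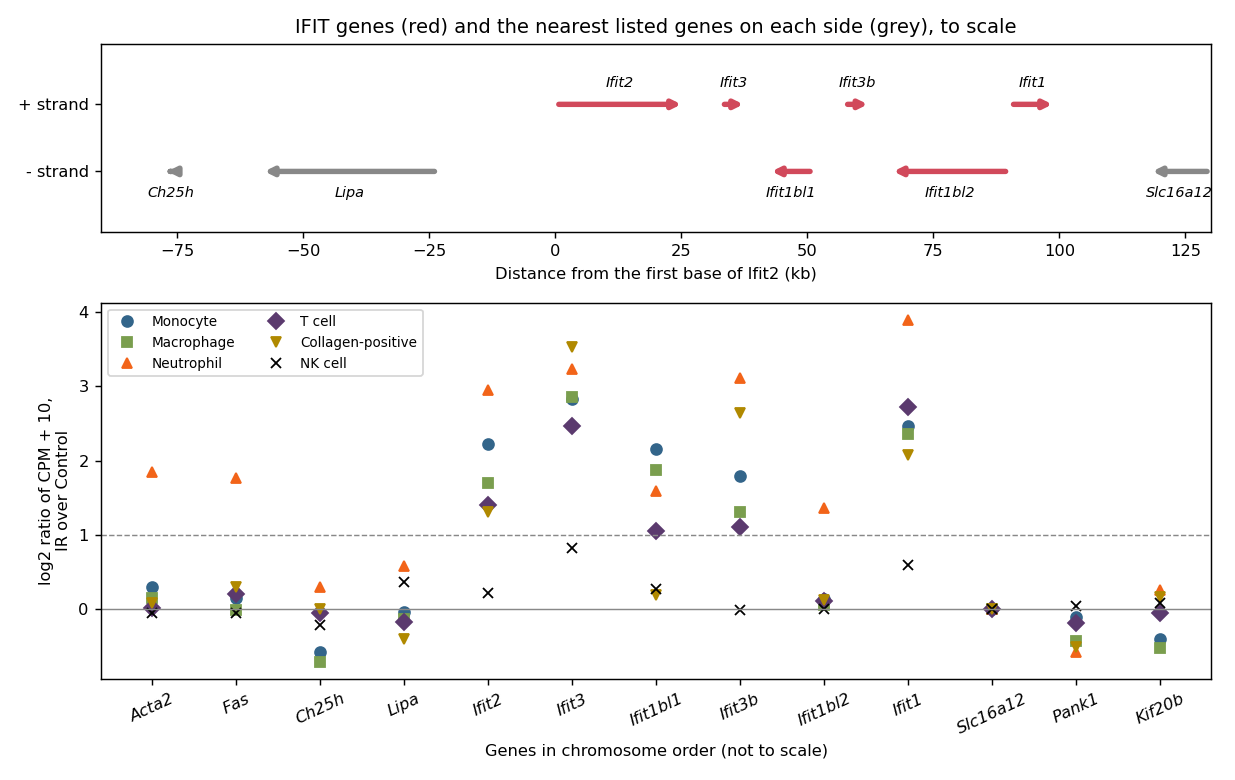
Top, the IFIT genes and their nearest listed neighbours drawn to scale by distance from the first base of Ifit2 (kb), with arrows in the direction of transcription (Slc16a12 runs on past the edge). Bottom, log2 ratio of CPM plus 10 (IR over Control) for 13 genes in chromosome order and 6 gates, with the dashed line at the threshold of 1; IFIT genes other than Ifit1bl2 lie above it in monocytes and macrophages and none lies above it in NK cells, while of the neighbours Acta2 and Fas lie above it, in neutrophils.

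The genes with the pattern most like the family's were sought over the 17 combinations of library and gate with at least 20 cells, by Pearson's r between log2 of CPM plus 10 and the mean of Ifit1, Ifit2, Ifit3 and Ifit3b, among 5611 genes with a mean of at least 20 CPM. The 10 highest besides the members were Rtp4 (r = 0.95), Isg15 (0.93), Usp18 (0.90), Irf7 (0.89), Xaf1 (0.88), Oas3 (0.87), Zbp1 (0.86), Parp14 (0.85), Oasl1 (0.85) and Dhx58 (0.85). The points share 2 libraries, so these values describe the pattern and carry no test. Of these 10 genes, 5 had a promoter window, and Isg15 (3 matches) and Oas3 (2 matches) held the letters searched. Among the members, r between Ifit1 and Ifit3 was 0.96, between Ifit3 and Ifit3b 0.94 and between Ifit1 and Ifit2 0.83. The lowest was 0.31, between Ifit1bl1 and Ifit1bl2. The mean of Ifit1bl2 was only 1.13 CPM, far under the 10 CPM added, so its r says little. The 17 combinations took in a Control gate of 29 cells set by Epcam, Krt8, Krt18 and Krt19.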

How the data were processed

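The deposited values are UMI counts of the Control and the IR library (Chromium 3′ v3.1), as the authors obtained them for all barcodes, neither filtered nor normalized. The submitters' processing notes name Cell Ranger 6.0.1 and mm10, whereas the matrix headers name Cell Ranger 4. The libraries held 48593879 (Control) and 42406461 (IR) UMIs.

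The members and gene lists were chosen with earlier results of these data known. Cells were assigned to the lineage with the strongest marker score, given at least 3 marker UMIs and more than 10% free RNA would give (Poisson tail under 0.001); barcodes with strong markers of unlike lineages were set apart as mixed, and no other doublet caller was run. Empty droplets were the barcodes of ranks 45001 to 90000 by UMIs. The study's own cell annotation was not used here.

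Intervals are exact Poisson (CPM), Clopper-Pearson (shares) and conditional binomial (ratios); UMIs of 1 cell are not independent, so they are too narrow. No test was run with 1 library per group. The text names the 6 members, 7 neighbours, pathway genes from a list of 41 by their roles (1 of them is not reported here) and the 10 most alike genes. CPM were not divided by gene length, as 3′ counts do not grow with it. Alternatives were another minimum of UMIs, mitochondrial share, gates, scaling (TMM of edgeR 4.0.16, median ratio), weighting of cells and subtraction of free RNA. Python 3.11.15, numpy 2.4.6, scipy 1.17.1, pandas 2.3.3 and Biopython 1.88 were used.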

Additional observations from a re-analysis of the deposited data

Results flagged for a closer look

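Several kinds of barcodes that entered no comparison of lineages also held more IFIT UMIs in IR than in Control, with intervals that did not overlap. Empty droplets had 248 CPM in IR and 62.0 CPM in Control. Barcodes with over 100 and under 500 UMIs had 288 CPM (211 to 382) in IR and 47.1 CPM (32.5 to 66.2) in Control. Barcodes with no marker call (unassigned) had 229 CPM (206 to 254) in IR and 37.9 CPM (29.2 to 48.3) in Control. Barcodes with markers of unlike lineages (mixed) had 248 CPM (235 to 262) in IR and 48.1 CPM (41.5 to 55.4) in Control.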

How the results depend on the processing

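No result turned its direction under an alternative, among the family, share, gene-count and empty-droplet results. Of these values 130 stayed within the main interval (or within 1.5 times a count) and 17 did not. With cells weighing the same the family log2 ratio moved to 2.81 in macrophages, 3.48 in neutrophils and 4.06 in collagen-positive cells. Without the deepest 6% of barcodes it was 2.95 in macrophages and 5.48 in collagen-positive cells, where 6 Control UMIs were left. With free RNA subtracted at 10% it was 3.20 in macrophages, 4.50 in T cells and 0.44 in NK cells. With mixed barcodes kept it was 2.62 in T cells and 2.20 in NK cells, and with monocyte markers without Ly6c2 1.94 in NK cells. With at least 2000 UMIs it was 6.24 in neutrophils. Without the barcode with the most family UMIs, an alternative chosen after seeing the data, it was 3.33 in monocytes and 4.44 in collagen-positive cells. The cause of these shifts was not tested. In mast cells or basophils, 709 genes were called with a minimum of 5 UMIs and 1141 with none, against 189. Control empty droplets had 48.4 CPM when taken as barcodes of 10 to 100 UMIs. Of 491 values for single members 26 left their interval, 15 upward and 11 downward, and 0 reversed. The neutrophil scaling shifts of TMM and median ratio were 0.25 and 0.24 log2 units upward for IR. No paired analysis was possible because each group had a single library. Depth limits Ifit1bl2 in all gates, and all members in mast cells or basophils.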

Other observations

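The gates too small for a comparison between the libraries held few IFIT UMIs. B cells (17 in Control, 7 in IR) had 0 UMIs in Control and 1 in IR. The keratin-positive gate (29 cells in Control, 6 in IR), set by Epcam, Krt8, Krt18 and Krt19, had 3 UMIs (6.05 CPM) in Control and 1 UMI (6.31 CPM) in IR, although its median depths were 16351 and 21255 UMIs; both further epithelial markers, Cldn4 and Cldn7, were at 0 in it, so it is called by its genes only.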
